A study of Rattus norvegicus with 9 samples.

Results

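The genes described here supply and load peptides for MHC class I molecules. They are B2m, Tap1, Tap2, Tapbp, Psmb8, Psmb9, Psmb10 and Irf1, found through the RefSeq transcripts of their probes. They were chosen by name, with earlier results of these data known. All of them were present on the array, with 9 probes in all, among 13438 genes that could be named. Each of the 9 probes was well above background on all 9 arrays, so none of the 8 genes was lost to the filter that left 9604 named genes and 25369 probes for testing. Gene expression was measured in the liver of 9 male Wistar rats, each hybridised to its own Agilent single-colour array, with 3 rats in each of 3 groups. The control rats were not irradiated. The TBI rats received total-body irradiation of 6.5 Gy from a 60Co source at 2 Gy/min. The HSC + TBI rats received the same irradiation after 3 days of Hong Shan Capsule (HSC), a herbal medicine given into the stomach, at a dose that the sample labels put at 30 mg/kg/day and the series description at 10 g/kg/day. Livers were taken 24 h after exposure. The labels do not say that each sample came from a separate rat, and the age of the rats is not given in the sources used here. No HSC group without irradiation was analysed here, so HSC alone cannot be told apart from HSC given before irradiation.

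Class I molecules display short peptides from inside the cell to cytotoxic T cells, and nearly all nucleated cells carry them. Peptides are cut by the proteasome, and under interferon-γ 3 of its catalytic subunits are replaced by Psmb8, Psmb9 and Psmb10 to give the immunoproteasome. The Tap1 and Tap2 proteins pair into the pump that carries peptides into the endoplasmic reticulum, where tapasin (Tapbp) holds the empty class I molecule next to it. B2m is the light chain of every class I molecule, and Irf1 is a transcription factor that interferon-γ induces and that binds the promoters of several of these genes. In liver, hepatocytes carry little class I at rest, while sinusoidal endothelial cells, Kupffer cells and lymphocytes carry more.

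The promoters of the 8 genes were searched for interferon response motifs, and no motif was found in all 8. In the 250 bases before the start of each gene (RefSeq, build GRCr8), the letters GAAANNGAAA, a core of the interferon-stimulated response element, were found on either strand in B2m, Tap1, Tap2, Tapbp and Psmb10, that is in 5 of 8 genes. The same letters were found in 1140 of 33469 promoters of the table, or 3.41%. The letters TTCNNNGAA of the gamma-activated site, a second kind of interferon response motif, were found in Psmb8 and Irf1, and in 7.67% of all promoters. Psmb9 held neither motif in this window. These are letter matches in a reference sequence and not measured binding sites. Stretches of 5 of the promoters are printed. They include the single match before Tap1, the overlapping pair before Tapbp, the separated pair before Psmb10 and the gamma-activated match before Irf1. For Psmb9 only the 80 bases next to its start are printed, although its whole window of 250 bases was searched. The printed stretches lie at chr20:4668620-4668699 (minus strand, Tap1), chr20:4967878-4967957 (minus strand, Tapbp), chr19:50743293-50743378 (minus strand, Psmb10), chr10:38417757-38417836 (plus strand, Irf1) and chr20:4668920-4668999 (plus strand, Psmb9). Each is written 5′ to 3′ on the strand of its gene, upstream of the start, with the matches in capitals:
Tap1: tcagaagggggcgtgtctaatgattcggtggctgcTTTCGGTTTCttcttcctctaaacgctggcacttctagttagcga
Tapbp: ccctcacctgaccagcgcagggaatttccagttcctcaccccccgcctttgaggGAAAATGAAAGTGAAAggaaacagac
Psmb10: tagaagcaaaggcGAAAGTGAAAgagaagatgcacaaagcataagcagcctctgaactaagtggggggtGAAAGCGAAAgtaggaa
Irf1: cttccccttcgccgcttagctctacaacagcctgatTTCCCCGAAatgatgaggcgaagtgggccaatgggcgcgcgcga
Psmb9: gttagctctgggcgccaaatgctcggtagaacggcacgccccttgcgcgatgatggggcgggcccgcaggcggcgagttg

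The match before Tap1 reads on the reverse strand and lies 121 to 112 bases before its start. Tap1 and Psmb9 are neighbours that run in opposite directions, with their starts 457 bases apart, so the match before Tap1 lies 336 bases from the start of Psmb9, outside its window. In Tapbp the 2 matches overlap, with the last GAAA of one serving as the first of the next.

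Values below are log2 of the normalized signal of a probe, and a log2 fold change is the difference between the means of 2 groups. A gene was called when its Benjamini-Hochberg adjusted p over all 25369 tested probes, from limma, was under 0.05 and its fold change was at least 1.5. Levels of different probes are not compared with each other, because probes differ in brightness. Before the results, 2 features of the arrays are given. The controls shared 1 slide and the TBI rats another, while HSC + TBI rats 1 and 3 shared the third slide and HSC + TBI rat 2 lay on the fourth, so slide and group cannot be told apart. Probes above background made up 56.6% to 59.3% of all probes in controls, 63.6% to 69.5% in TBI rats and 58.7% to 60.5% in HSC + TBI rats.

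Across the 3 groups, the processing genes were lowest in the rats given HSC before irradiation. Against controls, all 8 had a log2 fold change below 0 in HSC + TBI livers, with a median of -0.74, whereas 43.5% of all tested probes were below 0 and their median was 0.05. Of the 8, only Tap1 was called, and it was lower. Calls in that comparison came to 3.23% of all tested probes, and lower calls to 2.05%. At an unadjusted p under 0.05, 5 of the 8 passed (Tap1, Psmb9, Irf1, Psmb8 and Tapbp), as did 19.6% of all probes. Against TBI, all 8 were again below 0, with a median of -0.40 (of all probes, 41.3% were below 0, with a median of 0.06). None was called by limma, where 0.796% of probes were called and 0.564% were called lower. At an unadjusted p under 0.05, 2 of the 8 passed (B2m and Psmb9), as did 16.3% of all probes. TBI against control gave 7 of 8 below 0, with a median of -0.31 (of all probes, 50.7% were below 0, with a median of -0.01). None of the 8 was called by limma in that comparison, in which 7.25% of all probes were called and 3.71% were called lower, and at an unadjusted p under 0.05 only Tap1 passed (all probes, 25.5%). These 3 comparisons share groups, so their shared direction is not independent. In 7 of the 8 genes the means ran in the order control, TBI and HSC + TBI from high to low, and in B2m TBI was above control. No step between neighbours in that order was called.

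**Figure D1:**
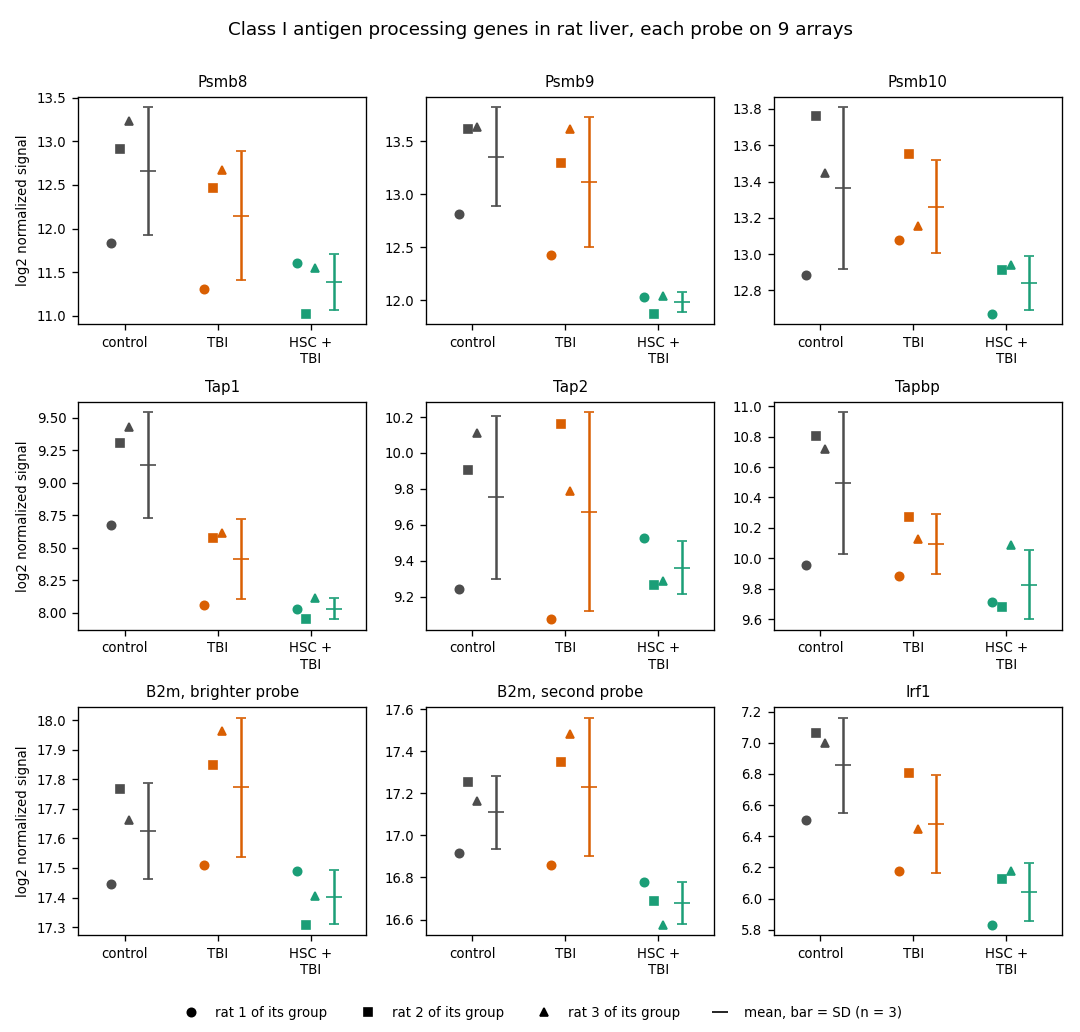
Log2 normalized signal (vertical axis, with its own range in each panel) of each of the 9 probes in the 3 control, 3 TBI and 3 HSC + TBI rats. Symbols mark the rat within its group, and the bar beside them gives the mean and SD (n = 3). Control rat 1 and TBI rat 1 (circles) are the lowest of their groups in all 8 genes, and the HSC + TBI rats lie below all controls for Tap1, Psmb8, Psmb9 and Irf1.

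The peptide pump subunit Tap1 fell after HSC + TBI. Its log2 signal was 8.67, 9.30 and 9.43 in the 3 controls, 8.06, 8.57 and 8.61 in the TBI rats and 8.03, 7.95 and 8.11 in the HSC + TBI rats. Every irradiated rat, with or without HSC, was therefore below every control, whereas the HSC + TBI rats overlapped TBI rat 1. The log2 fold change of HSC + TBI against control was -1.11 ± 0.22 (SE, n = 3 per group), a 2.15-fold lower signal with an adjusted p of 0.0359 by limma. Against TBI it was -0.38, with a 95% interval from -0.89 to 0.13 and an adjusted p of 0.441. TBI against control gave -0.72, from -1.23 to -0.21, with an adjusted p of 0.0849. In whole liver, fewer cells of a type that carries a transcript and less of that transcript per cell cannot be told apart, which holds for every gene described here. The call for Tap1 was lost when control 2, control 3, TBI rat 2 or any 1 of the HSC + TBI rats was left out, with adjusted p from 0.0515 to 0.129, although the log2 fold change stayed between -1.34 and -0.96 whichever rat was left out.

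The other pump subunit, Tap2, gave smaller differences. Its log2 signal was 9.24, 9.91 and 10.11 in controls, 9.07, 10.16 and 9.79 in TBI rats and 9.53, 9.26 and 9.29 in HSC + TBI rats, so that the HSC + TBI values lay within the range of both other groups. HSC + TBI against control gave -0.39, with a 95% interval from -1.08 to 0.30 and an adjusted p of 0.526 by limma. Tapasin, encoded by Tapbp, read 9.96, 10.80 and 10.72 in controls, 9.88, 10.27 and 10.13 in TBI rats and 9.71, 9.68 and 10.09 in HSC + TBI rats. Only HSC + TBI rat 3 overlapped the controls, and only through control rat 1. The log2 fold change of Tapbp against control was -0.67 ± 0.24 (SE, n = 3 per group), and it did not pass after adjustment by limma (adjusted p = 0.171).

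Of the immunoproteasome subunits, Psmb9 and Psmb8 had the largest log2 fold changes of the 8 genes in both comparisons of HSC + TBI. Psmb9 (the LMP2 subunit) read 12.81, 13.61 and 13.63 in controls, 12.43, 13.29 and 13.61 in TBI rats and 12.03, 11.87 and 12.04 in HSC + TBI rats. The 3 HSC + TBI rats lay close together and below all other rats, whereas in both other groups the first rat lay apart below the other two. Its log2 fold change was -1.37 ± 0.32 against control and -1.13 ± 0.32 against TBI (SE, n = 3 per group). These are 2.59-fold and 2.19-fold lower signals, and limma gave adjusted p of 0.0584 and 0.150, both above the threshold. Against control, Psmb9 passed when control 1, TBI rat 1 or TBI rat 3 was left out, with a lowest adjusted p of 0.0211, and against TBI it passed when TBI rat 1 was left out, with an adjusted p of 0.0273.

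Psmb8 (LMP7), the subunit with chymotrypsin-like activity, read 11.84, 12.91 and 13.23 in controls, 11.30, 12.47 and 12.67 in TBI rats and 11.60, 11.02 and 11.54 in HSC + TBI rats. The HSC + TBI rats lay below all controls but around TBI rat 1. Its log2 fold change against control was -1.27, with a 95% interval from -2.27 to -0.27, with an adjusted p of 0.159 by limma. The SD was 0.73 in controls and 0.74 in TBI rats (n = 3 each). Psmb10 (MECL-1), the subunit with trypsin-like activity, read 12.88, 13.76 and 13.45 in controls, 13.08, 13.55 and 13.15 in TBI rats and 12.67, 12.91 and 12.94 in HSC + TBI rats. Here the HSC + TBI rats lay below all TBI rats and overlapped control 1 alone. The log2 fold change of Psmb10 was -0.52 against control and -0.42 against TBI, with adjusted p of 0.256 and 0.412 by limma.

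The constitutive subunits that these replace are encoded by Psmb5, Psmb6 and Psmb7. Their log2 fold changes between HSC + TBI and control were 0.01, 0.25 and -0.14, and none was called in any comparison. The difference between the log2 signals of an induced subunit and its constitutive counterpart was then taken within each rat, which removes what both probes share on an array. For Psmb9 and Psmb6 it ranged from 1.45 to 2.32 in controls, from 1.01 to 2.21 in TBI rats and from 0.34 to 0.42 in HSC + TBI rats. The HSC + TBI range thus lay apart from both others. The change of the mean difference was -1.62 against control and -1.25 against TBI, each with an exact two-sided permutation p of 0.1, the smallest that 3 against 3 rats allow (0.3 after adjustment over the 9 such tests). For Psmb8 and Psmb5 the change was -1.29 against control, again without overlap and with an exact permutation p of 0.1, while TBI and HSC + TBI overlapped. For Psmb10 and Psmb7 it was -0.38 against control, with an exact permutation p of 0.2 and overlapping ranges.

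**Figure D2:**
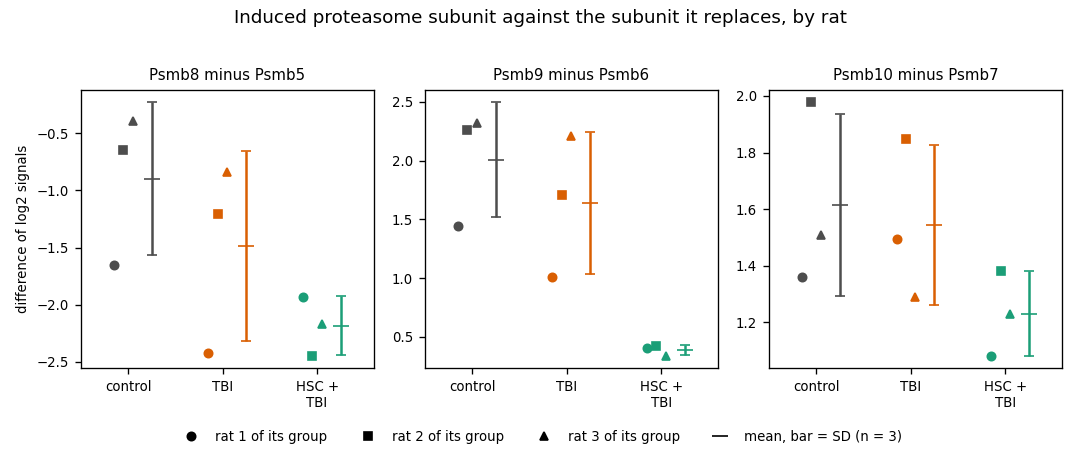
Difference of log2 signals between an induced proteasome subunit and the constitutive subunit it replaces (vertical axis, own range per panel), by rat in the 3 groups, with mean and SD (n = 3). The HSC + TBI rats sit between 0.34 and 0.42 for Psmb9 minus Psmb6, under the control range of 1.45 to 2.32. Values compare groups within a panel and not subunits, since 2 probes differ in brightness.

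The light chain B2m had 2 probes, and both were measured on every array. Its brighter probe (A_44_P214040) read 17.45, 17.77 and 17.66 in controls, 17.51, 17.85 and 17.96 in TBI rats and 17.49, 17.31 and 17.41 in HSC + TBI rats, without a saturated spot. Its second probe (A_43_P11442) read 16.92, 17.25 and 17.16 in controls, 16.86, 17.35 and 17.48 in TBI rats and 16.78, 16.69 and 16.57 in HSC + TBI rats. With both probes the HSC + TBI rats lay below all TBI rats, and with the second probe they also lay below all controls. Against TBI the log2 fold change was -0.37 with the brighter probe and -0.55 with the second, and limma gave adjusted p of 0.269 and 0.187. Against control it was -0.22 (95% interval -0.56 to 0.12) and -0.43. Neither probe was called. The brighter probe is among the brightest on every array, where quantile normalization gives nearly the same values to all arrays. Its small differences may therefore be narrowed.

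The transcription factor Irf1 read 6.51, 7.06 and 6.998 in controls, 6.18, 6.80 and 6.45 in TBI rats and 5.83, 6.12 and 6.18 in HSC + TBI rats. Every HSC + TBI rat lay below every control, and HSC + TBI rat 3 met TBI rat 1. Its log2 fold change against control was -0.81 ± 0.21 (SE, n = 3 per group), a 1.76-fold lower signal, and the adjusted p of limma was 0.0769. Against TBI it was -0.43, with a 95% interval from -0.91 to 0.04.

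**Figure D3:**
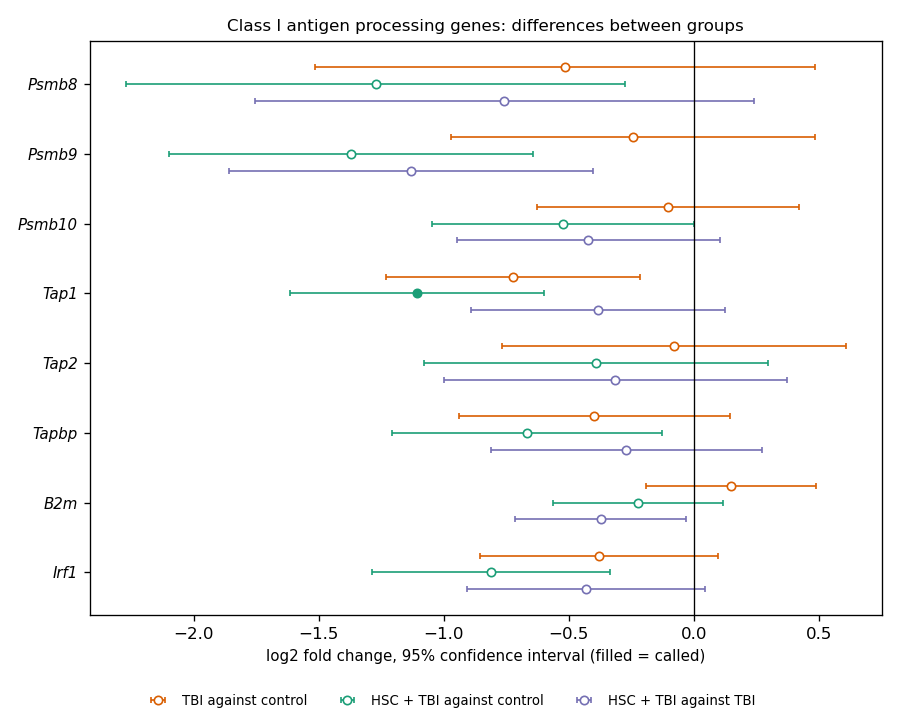
Log2 fold change (horizontal axis) of each of the 8 genes in the 3 comparisons, with the 95% confidence interval of the limma fit and the brighter probe for B2m. Filled points were called, which holds for Tap1 in HSC + TBI against control alone, at -1.11, and only the TBI point of B2m lies above 0.

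Without overlap, 4 of the 8 genes were lower in HSC + TBI than in control (Tap1, Psmb8, Psmb9 and Irf1), as were 13.7% of all tested probes. Against TBI, B2m, Psmb9 and Psmb10 were lower without overlap, that is 3 of 8, as were 8.74% of all probes, and TBI lay below control without overlap for Tap1 alone, as did 15.6% of all probes. The genes also moved together from rat to rat within a group. Control rat 1 was the lowest control for all 8 genes, with a median deviation from the group mean of -0.50, and TBI rat 1 was the lowest TBI rat for all 8, with a median of -0.33. This was not particular to the 8 genes. Both rats were also lowest for the interferon target Gbp2, the macrophage markers Clec4f and C1qb and the NK cell marker Gzma, but not for Ccl5 or Irf7. How often it holds over all probes was not computed. HSC + TBI rat 2 was the lowest of its group for 6 of 8, but with a median deviation of only -0.09. Groups of 3 rats limit the precision of each comparison, and the spread within control and TBI was carried by these same rats in gene after gene.

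The rat class I heavy chains, encoded by the RT1 complex, are the proteins that the 8 genes serve. Of 21 heavy chain genes on the array, 17 were tested, and their probes can share near-identical sequence, so that the signal of a single RT1 gene is uncertain. Against control, 15 of 17 had a log2 fold change below 0 in HSC + TBI livers, with a median of -1.21. By limma only RT1-S3 was called, at -1.25 ± 0.25 (SE, n = 3 per group) with an adjusted p of 0.0328, and at an unadjusted p under 0.05, 14 of 17 passed lower and 1, RT1-M5, passed higher (all probes in either direction, 19.6%). RT1-S3 read 13.14, 14.07 and 13.65 in controls, 12.66, 13.00 and 12.88 in TBI rats and 12.16, 12.26 and 12.70 in HSC + TBI rats, so all irradiated rats lay below the controls. The brightest heavy chain probe, RT1-CE1, read 13.56, 14.98 and 14.93 in controls, 13.75, 14.63 and 14.24 in TBI rats and 13.49, 13.50 and 13.21 in HSC + TBI rats. RT1-CE12 read 13.31, 14.79 and 14.84, then 13.48, 14.45 and 14.07, then 13.19, 13.25 and 12.84 in the same order. In both genes the HSC + TBI rats lay just below control rat 1 and TBI rat 1 and far below the other rats of those groups. The log2 fold changes against control were -1.09 and -1.22, with adjusted p of 0.162 and 0.152 by limma.

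Against TBI, 16 of 17 heavy chains were below 0, with a median of -0.70, and 10 did not overlap (all probes, 8.74%). None was called, and 5 passed at an unadjusted p under 0.05 (all probes, 16.3%). TBI against control had a median of -0.31. Its single call by limma went the other way, with RT1-M5, a dim nonclassical gene, higher by 1.05 (adjusted p = 0.00350). RT1-M5 read 5.86, 6.13 and 5.95 in controls, 7.14, 7.05 and 6.89 in TBI rats and 6.23, 6.51 and 6.43 in HSC + TBI rats, and it did not follow the other heavy chains. The count of heavy chains called in HSC + TBI against control turned on single rats. It was 13 of 17 without control 1 and 2 without TBI rat 1, and it was 0 without control 2, control 3, HSC + TBI rat 1 or HSC + TBI rat 2. Over all probes, 820 calls became 844 without control 1 and 1028 without TBI rat 1. Without each of the other rats, in the same order, they became 366, 330, 317 and 343.

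**Figure D4:**
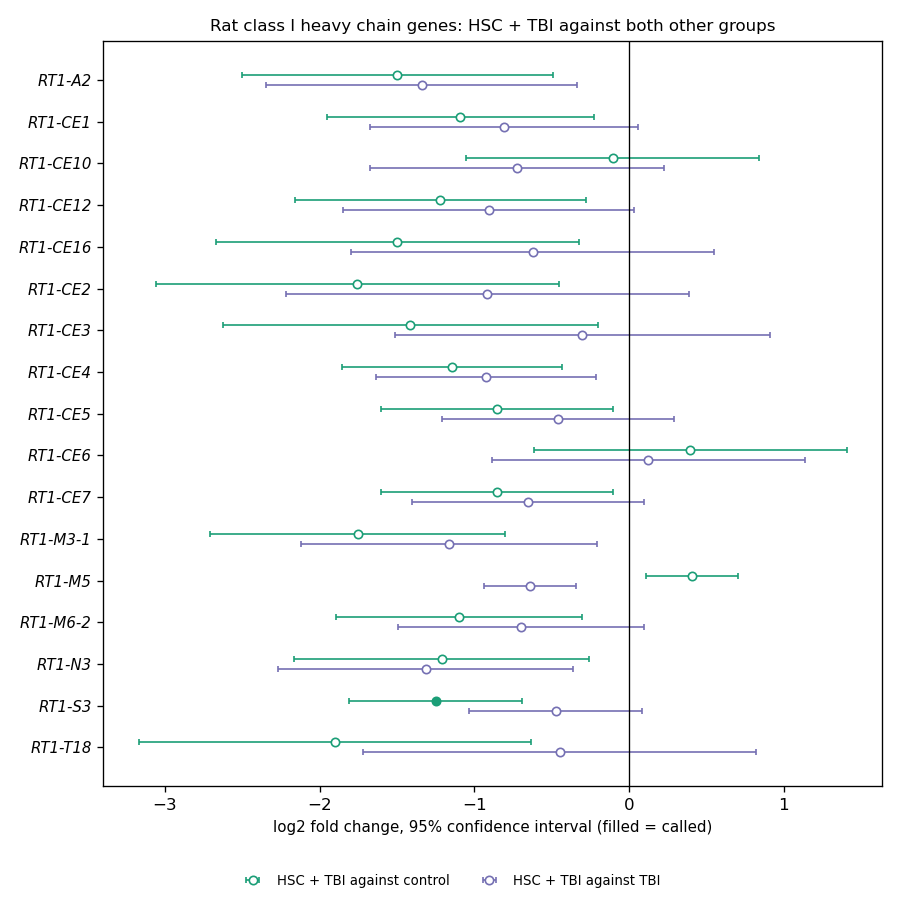
Log2 fold change (horizontal axis) of the 17 tested class I heavy chain genes in HSC + TBI against control and against TBI, with 95% confidence intervals from limma and filled points for calls. Most points lie below 0 with wide intervals, RT1-S3 at -1.25 is the filled point, and RT1-CE6 and RT1-M5 lie above 0 against control.

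The other genes of the class I pathway had medians near 0 in all comparisons. Of 30 further genes of the pathway, 26 had a probe and 25 were tested. They included the chaperones Calr, Canx, Pdia3 and Hspa5, the proteasome activators Psme1 and Psme2, the proteasome assembly factor Pomp, the peptidases Npepps and Tpp2, the Sec61 channel and the CD8 coreceptor that reads class I on T cells. Their median log2 fold change was 0.06 in TBI against control, 0.06 in HSC + TBI against control and -0.06 in HSC + TBI against TBI. By limma none was called against control in either comparison (1 and 5 of 25 passed at an unadjusted p under 0.05, as did 25.5% and 19.6% of all probes), and 1 was called against TBI (all probes, 0.796%). The brightest, Pomp and Hspa5, had log2 fold changes of 0.06 and 0.14 between HSC + TBI and control. Psme1 and Psme2, which interferon-γ also induces, were at -0.35 and -0.41, with adjusted p of 0.231 and 0.227, and Tapbpl, a tapasin relative, was at -0.51. The 1 call was Cd8b, which read 5.95, 6.03 and 6.82 in controls, 6.91, 7.48 and 6.75 in TBI rats and 5.39, 5.49 and 5.53 in HSC + TBI rats. The HSC + TBI rats lay below all others, and against TBI the log2 fold change was -1.58 with an adjusted p of 0.0434 by limma. None of the 25 genes was called against TBI when control 1, control 2, TBI rat 2 or any 1 of the HSC + TBI rats was left out. Over all probes, 202 calls in that comparison fell to between 28 and 112 without those rats. The partner Cd8a had a log2 fold change of -0.74 against TBI (adjusted p = 0.492), with 2 of 3 HSC + TBI arrays above background. In TBI against control the partners went opposite ways, with Cd8a at -0.90 and Cd8b at 0.78, and neither was called.

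Upstream of the class I genes, the interferon signalling factors Irf7 and Irf9 were lower than control in both irradiated groups, Stat2 was called in TBI alone, and the targets Cxcl10 and Gbp2 were called in HSC + TBI alone. A list of 41 receptors, kinases, factors and target genes had 37 genes on the array and 30 tested. Of these, 3 were called lower and none higher in TBI against control (Stat2, Irf7 and Irf9; lower calls over all probes, 3.71%), and 4 were called lower and none higher in HSC + TBI against control (Irf7, Irf9, Cxcl10 and Gbp2; over all probes, 2.05%). The list medians were -0.14 and -0.38. By limma none was called in HSC + TBI against TBI, where the median was -0.17. In that comparison 9 of 30 passed at an unadjusted p under 0.05, 8 lower and 1 higher (all probes, 16.3%). The 7 untested genes, among them Ifng itself, Socs1 and Ciita, were not well above background on every array of any group.

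Irf7, which amplifies type I interferon, read 13.29, 15.00 and 14.85 in controls, 12.23, 12.44 and 11.72 in TBI rats and 11.08, 11.30 and 11.91 in HSC + TBI rats. Both irradiated groups lay below the controls, by log2 fold changes of -2.25 and -2.96, with adjusted p of 0.0198 and 0.0111 by limma. Irf9, which binds the response element in a complex with Stat2, had -0.75 and -0.88. Stat2 differed in its order, at -0.94 in TBI and -0.50 in HSC + TBI against control, and only the first was called (adjusted p = 0.00375 and 0.0632). Irf3, the brightest probe of the list beside Irf7, had -0.18 and -0.25 and was not called.

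Among the interferon targets, the chemokine Cxcl10 read 10.63, 11.27 and 10.88 in controls, 8.28, 10.39 and 9.31 in TBI rats and 7.40, 8.02 and 8.19 in HSC + TBI rats. The 3 groups did not overlap, and HSC + TBI against control gave -3.06 with an adjusted p of 0.0124 by limma. TBI against control gave -1.60 and HSC + TBI against TBI gave -1.46, with adjusted p of 0.0766 and 0.188 by limma, and neither was called. The GTPase Gbp2 read 11.31, 12.40 and 11.99 in controls, 10.40, 11.54 and 12.17 in TBI rats and 9.15, 9.82 and 10.00 in HSC + TBI rats, and its TBI rats overlapped the controls while its HSC + TBI rats lay below both groups, with -2.25 against control and an adjusted p of 0.0377. The count of 4 in HSC + TBI against control became 8 without TBI rat 1. It became 1 without control 2 or HSC + TBI rat 2, and 0 without control 3 or HSC + TBI rat 1. The count of 3 in TBI against control became 1 without control 2 or control 3, and 6 genes were called in HSC + TBI against TBI without TBI rat 1. Calls over all probes moved too. In HSC + TBI against control, 820 became 1028 without TBI rat 1, 366 without control 2 and 330 without control 3. It became 317 without HSC + TBI rat 1 and 343 without HSC + TBI rat 2. In TBI against control, 1839 became 1139 without control 2 and 888 without control 3. In HSC + TBI against TBI, 202 became 948 without TBI rat 1.

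**Figure D5:**
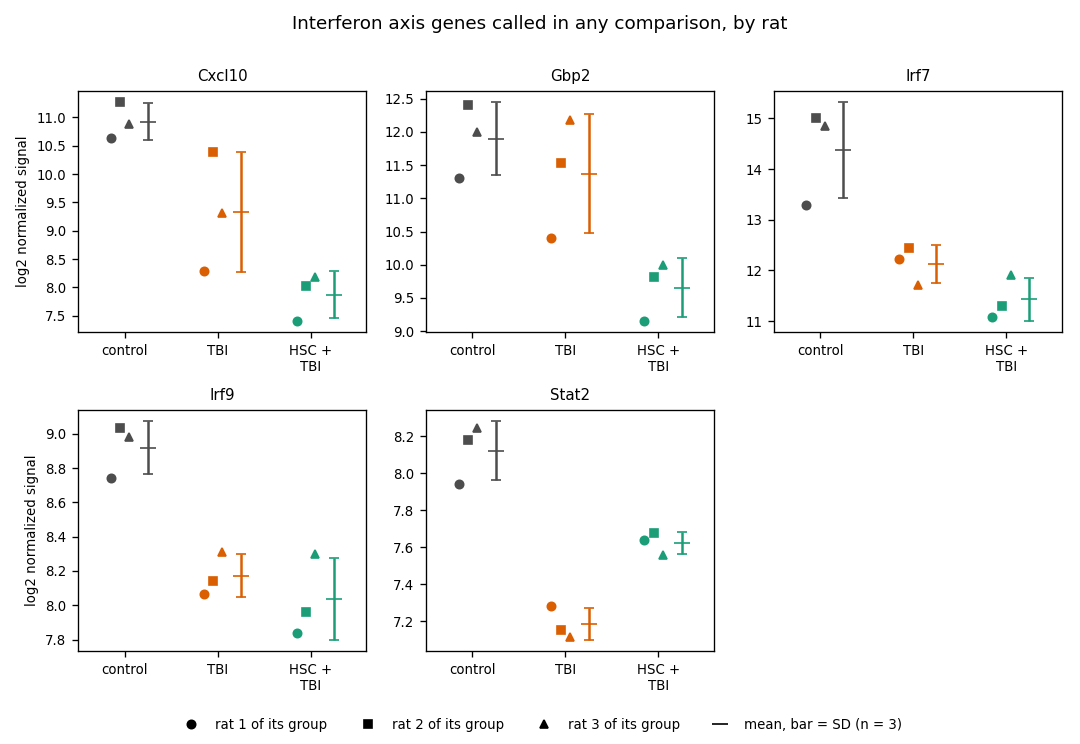
Log2 normalized signal (vertical axis, own range per panel) of the 5 interferon axis genes called in any comparison, by rat in the 3 groups, with mean and SD (n = 3). All irradiated rats lie below all controls for Cxcl10, Irf7, Irf9 and Stat2, whereas the TBI rats overlap the controls for Gbp2.

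Markers of the cells that a liver sample holds moved in part with these genes. All 12 hepatocyte markers were above background on every array, and the log2 of their summed signal ranged from 20.78 to 20.85 in controls, 20.75 to 20.95 in TBI rats and 20.81 to 20.88 in HSC + TBI rats. The brightest were Tf and Apoc3, and by limma 1 of 12 was called, with Tat higher by 1.53 in TBI (adjusted p = 0.0287). Macrophage markers, which were led by Clec4f and C1qb and cover Kupffer cells, were not called for any of the 11 tested of 12 listed. Their summed log2 signal was 16.50 to 17.14 in controls, 16.57 to 17.47 in TBI rats and 16.07 to 16.18 in HSC + TBI rats, and 9 of 11 were lower in HSC + TBI than in TBI without overlap (all probes, 8.74%), with a median log2 fold change of -0.96. In TBI against control 10 of 11 were above 0, with a median of 0.28, whereas 7 of the 8 class I genes were below 0. NK cell markers summed to 11.79 to 12.76 in controls, 11.14 to 12.79 in TBI rats and 10.41 to 11.29 in HSC + TBI rats. Against control, all 9 tested of 12 listed were lower in HSC + TBI without overlap (all probes, 13.7%), and by limma Klrk1 and Xcl1 were called, at -2.20 and -1.81, while the brightest, Ccl5 and Gzma, were not.

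T cell markers summed to 9.26 to 9.73 in controls, 8.46 to 9.01 in TBI rats and 8.37 to 8.79 in HSC + TBI rats. Of 6 tested genes among 11 listed, Cd3g, Cd2 and Lat were called lower in TBI, and Cd3g and Lat in HSC + TBI, against control (lower calls over all probes, 3.71% and 2.05%). Cd4 and Lck had log2 fold changes of 0.71 and 0.55 in TBI against control and were not called, and Cd3d, the brightest beside Lat, was not called either. In HSC + TBI livers Cd3g was not well above background on any array, and Cd2 was not on any TBI array and was called higher in HSC + TBI than in TBI with 1 of 3 arrays above background. Cd3g and Cd2 entered the test through the controls alone, so the filter itself favoured lower calls for them against control. Cd3e, Cd247, Cd5, Cd28 and Trat1 were not well above background on any array. Of the B cell markers (4 of 12 tested, with Cd22 and Vpreb3 the brightest), Cd79b was called lower in both irradiated groups, where it was not well above background on any array, and Vpreb3 was called higher in TBI, by 1.21. Cd79b too entered the test through the controls alone, so the filter favoured a lower call. The summed log2 signal of the B cell markers was 8.05 to 8.20, 8.51 to 8.78 and 7.96 to 8.48.

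Neutrophil markers (4 of 12 tested, led by S100a9 and S100a8) summed to 8.58 to 9.71, 8.71 to 10.52 and 8.25 to 8.81, and endothelial markers (9 tested, led by Kdr and Fcgr2b) to 14.21 to 14.48, 14.63 to 14.79 and 14.46 to 14.59. By its brightest probe, no gene of either list was called in any comparison by limma. In HSC + TBI against control, 5 endothelial genes (2 lower, 3 higher) and 1 neutrophil gene (lower) had an unadjusted p under 0.05 (all probes, 19.6%). A dimmer probe of the endothelial gene Tie1 was called higher in TBI than in control, at 1.20 (adjusted p = 0.0424 by limma). The brighter Tie1 probe was at 0.28 and was not called. Stellate cell markers (10 tested, led by Col3a1 and Col1a2) summed to 14.08 to 14.40, 13.69 to 14.51 and 13.87 to 14.05, with Lrat called lower in TBI at -0.63, and cholangiocyte markers (7 tested, led by Cd24 and Slc4a2) to 10.78 to 10.94, 10.49 to 11.03 and 10.63 to 10.95, with no call. The ranges of the macrophage, NK cell, T cell and neutrophil lists were lowest in the HSC + TBI group. Of these, the NK cell, T cell and neutrophil ranges overlapped those of TBI. The narrow hepatocyte range cannot be set against them, because quantile normalization gives the brightest probes of every array nearly the same values. Tf, for instance, read 18.16 in each HSC + TBI rat. The part of these cell markers in the values of the 8 genes was not tested.

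Among the 9598 other named genes with a measured pattern, the one closest to each of the 8 was found by the root mean square difference between log2 values centred on each gene over the 9 arrays, with small values for close patterns. Tap1 was closest to Trafd1 (0.13), with log2 fold changes for Trafd1 of -0.67 in TBI and -1.07 in HSC + TBI against control. Psmb9 was closest to Slfn9 (0.16), Psmb8 to Enpp5 (0.16), Psmb10 to Nmi (0.10) and Irf1 to Sh3kbp1 (0.09). Tapbp was closest to Rarres1 (0.07), Tap2 to Snx12 (0.07) and B2m to Pde7a (0.08). The genes nearest to the median profile of the 8 were Rhog (0.11), Cap1 (0.11), Dynlt1 (0.12), Cmtm7 (0.12) and Pla2g15 (0.13).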

How the data were processed

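Total RNA from 9 livers was labelled with Cy3 and hybridised to Agilent whole rat genome arrays. The deposited intensity values are the processed signals of Agilent Feature Extraction (10.7 per the labels, 10.7.3.1 per the file headers), which subtracts background and detrends within an array and does not normalize between arrays. The authors also deposited log2 values normalized by quantiles in GeneSpring, which were used as an alternative. Feature Extraction's flags marked spots above background and outlier spots (84 to 115 of 43379 per array, left out), and no spot was saturated.

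From the intensities, signals under 1 were set to 1, log2 values were normalized by quantiles over the 9 arrays and spots of a probe were averaged. A probe entered the test if, in any 1 group, every array had over 0.5 of its spots above background. limma 3.58.1 (R 4.3.3) fitted 3 group means with no covariate, and p-values were adjusted over all tested probes. The test was run on simulated data. Quantile normalization sets a gene against the whole array, so a shift of all genes would not be seen.

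Probes were named by RefSeq accession without its version from a RefSeq gene table (assembly GRCr8, used for names and promoters): 16968 of 41012 probes had 1 symbol, none had several and 24044 had none. A gene with several probes was given by its brightest tested probe. Heavy chains were taken by symbol, as RT1 genes outside the class II loci, since the table holds no gene descriptions. Named were the 8 genes, in each other list the called genes and the 2 brightest, and the genes of closest pattern. A few further list members (Psmb5 to Psmb7, Psme1, Psme2, Tapbpl, Cd8a) were named after their values were seen. From the interferon and T cell lists, 1 gene each is not reported here, and the counts leave it out. The 8 genes and all lists were chosen with earlier results of these data known. The labels number the samples of a group without saying that each came from a separate rat; they are called rats here, and p-values measure the spread between these samples. Alternatives changed the normalization, background correction, filter, test, fit, blocks and probe, and left out each rat in turn.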

Additional observations from a re-analysis of the deposited data

Results flagged for a closer look

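In 1 gene of the class I pathway, Cd8b, irradiated rats with and without HSC differed, with a log2 fold change of -1.58 in HSC + TBI against TBI that passed adjustment by limma (adjusted p = 0.0434), lower in 3 of 3 HSC + TBI rats than in every TBI rat. It was the only call among the 25 tested genes of that list (all probes, 0.796%). In 12 of 22 alternatives no gene of the list was called in this comparison.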

How the results depend on the processing

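The log2 fold changes of the 8 genes in the 3 comparisons were recomputed under 22 alternatives each, 528 values in all, of which 494 kept both their direction and their side of the threshold, 21 passed it newly, 8 (all of Tap1 in HSC + TBI against control) no longer passed and 5 changed sign. The 5 belonged to TBI against control, where none of the 8 genes was called: B2m gave -0.0077 with a 75th percentile shift in place of quantiles, Tap2 gave 0.10 without control 3 and 0.22 without TBI rat 1, Psmb9 gave 0.10 without TBI rat 1, and Psmb10 gave 0.10 without control 2. With a rat left out these values ranged from -0.33 to 0.22 for Tap2, -0.51 to 0.10 for Psmb9 and -0.34 to 0.10 for Psmb10. Of the 8 genes, 1 was called in HSC + TBI against control (Tap1). That count was 2 under normexp background correction, under a filter that asked every array for a signal above background, and when a fit held the compared groups alone. It was 0 when dim probes were kept, and 5 with the slide as a random block (estimated correlation -0.33). Since slide and group cannot be told apart, the fit with the slide block cannot separate a slide effect from the group differences. Over all probes that fit called 2573 in HSC + TBI against control, where the values reported gave 820. The methods' t-test called 3 at its unadjusted threshold and 0 after Benjamini-Hochberg adjustment. With a rat left out the count ranged from 0 to 4, with 4 without control 1, where 844 of all probes were called. In TBI against control, 0 became 1 with the slide as a random block, and 0 to 1 with a rat left out. It was 1 without control 1, where 1238 of all probes were called. In HSC + TBI against TBI, 0 became 1 with the slide as a random block and with the unadjusted t-test. It was 0 to 1 with a rat left out, with 1 without TBI rat 1, where 948 of all probes were called. Psmb9 was the gene called beside Tap1 where 2 passed. The cause of these changes was not tested, apart from the number of probes tested, which the filters change by construction.

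The labels number the rats from 1 to 3 in each group, but correlations between same-numbered rats of different groups ran from -0.14 to 0.19, with 2 of 9 over 0.1, so the numbers were not taken as pairs. With the replicate block in the fit, 3 of the 8 genes were called in HSC + TBI against control (Tap1, Psmb9 and Irf1) and 0 in each of the other comparisons. The same block moved the heavy chains called in HSC + TBI against control from 1 to 4, and Cd8b lost its call.

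Over all probes, the 75th percentile shift turned the split of higher and lower calls in TBI against control from 899 and 940 to 1043 and 772, and in HSC + TBI against TBI from 59 and 143 to 38 and 239. Probes called ranged over all alternatives from 145 to 4528 (1839 in the values reported) in TBI against control, from 100 to 2573 (820 in the values reported) in HSC + TBI against control and from 2 to 2256 (202 in the values reported) in HSC + TBI against TBI. Each of these upper ends came from the slide as a random block, a fit that cannot separate slide from group. In the same order, interferon axis genes called ranged from 0 to 5, 0 to 10 and 0 to 8, and heavy chains called from 0 to 6, 0 to 14 and 0 to 6. Cd8b was also not called with normexp correction, with either other filter or when only the compared groups were fitted. The precision is limited by 3 arrays per group.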
